A study of Mus musculus with 4 samples.

Results

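Of 72519 regions on chromosomes 1 to 19 with a methylation peak in every library, 552 (0.761%) were strongly enriched in each of the 4 libraries. A region was made by joining peaks of different libraries that overlapped by 1 bp or more, and it was chosen by its fold enrichment, which had to reach 15 or more in its highest peak in each library. Fold enrichment is the number of sequenced tags at a peak divided by the number the peak caller expected from the DNA around it in the same library. It measures how far a site stands out from its surroundings, not the percentage of methylated cytosines. All sequencing was MeDIP-seq, in which an antibody to 5-methylcytosine pulls down methylated DNA fragments before sequencing.

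The DNA came from handpicked pancreatic islets of C57BL/6 mice aged 8 weeks. The 2 WT libraries came from Raptor lox/lox mice, whose floxed Raptor alleles were intact. The 2 βRapKO libraries came from Raptor lox/lox mice that also carried RipCre, a Cre recombinase under the rat insulin promoter that deletes Raptor in beta cells. Raptor is a component of mTORC1, a kinase complex that couples nutrient supply to cell growth, and the comparison asks whether DNA methylation in islets differs when it is lost. The Cre line was of mixed C57BL/6J:129/SvJ background, and no islets with Cre and intact Raptor were sequenced here. Islets also hold alpha, delta and other cells in which this Cre is not meant to act. The files hold methylation and no expression, so neither the tissue's marker genes nor the loss of Raptor could be checked. Whether the 2 libraries of a genotype came from separate animals is not given, so p-values measure only the spread between these samples. After removal of duplicates the libraries held 25585533 (WT 1), 31330751 (WT 2), 29220997 (βRapKO 1) and 29175287 (βRapKO 2) tags.

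In mammals most methylated cytosines lie in CpG dinucleotides, and methylated CpGs are lost over evolutionary time, so that bulk DNA holds few of them. Transposable elements such as LINE-1 repeats and endogenous retroviruses carry more CpGs than the DNA they land in, and cells keep most of them methylated and silent. An antibody to methylated cytosine therefore pulls down CpG-dense methylated DNA most strongly. Tandem repeats, including satellite DNA at centromeres and TTAGGG arrays at chromosome ends, are a further kind of sequence. The assembly often holds fewer copies of them than the chromosomes do.

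Several of the strongly enriched regions fell into recognisable kinds of sequence, shown by the following 200-base windows on the forward strand of mouse build GRCm38 (mm10), as given by RefSeq. Capitals mark each CG, except in family 3. There they mark a 16-base stretch complementary to the end of a lysine tRNA, the kind of site at which a retrovirus starts to copy its RNA. The first 4 windows illustrate the region with the highest fold enrichment, a pair of short tandem arrays and a family with little soft-masking. The last pair stand for repeat families and were chosen after their values were seen.
highest fold enrichment, intron of Aida, chr1:183299322-183299521: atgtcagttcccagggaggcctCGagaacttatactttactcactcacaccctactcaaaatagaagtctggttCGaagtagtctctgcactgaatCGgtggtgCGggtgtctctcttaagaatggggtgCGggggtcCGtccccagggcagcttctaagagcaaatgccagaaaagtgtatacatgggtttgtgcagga
15-bp unit, intron of Slf1, chr13:77109486-77109685: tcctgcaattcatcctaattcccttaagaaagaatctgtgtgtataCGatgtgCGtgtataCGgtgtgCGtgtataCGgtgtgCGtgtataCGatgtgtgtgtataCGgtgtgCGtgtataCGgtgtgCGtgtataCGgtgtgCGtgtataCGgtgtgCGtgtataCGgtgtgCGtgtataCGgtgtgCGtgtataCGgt
7-bp unit, chr14:92089742-92089941: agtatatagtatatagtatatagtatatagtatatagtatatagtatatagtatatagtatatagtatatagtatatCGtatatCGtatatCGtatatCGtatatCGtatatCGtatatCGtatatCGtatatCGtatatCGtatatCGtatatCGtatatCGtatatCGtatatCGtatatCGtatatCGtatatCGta
family 7, chr8:15519845-15520044: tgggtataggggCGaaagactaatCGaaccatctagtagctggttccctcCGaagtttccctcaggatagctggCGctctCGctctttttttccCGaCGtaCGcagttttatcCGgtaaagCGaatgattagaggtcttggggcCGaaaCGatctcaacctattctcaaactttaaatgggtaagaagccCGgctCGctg
family 3, chr13:96308102-96308301: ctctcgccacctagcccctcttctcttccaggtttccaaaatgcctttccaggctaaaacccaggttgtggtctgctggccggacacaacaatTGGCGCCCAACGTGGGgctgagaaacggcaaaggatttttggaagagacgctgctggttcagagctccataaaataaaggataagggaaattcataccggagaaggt
family 1, chr13:78358836-78359035: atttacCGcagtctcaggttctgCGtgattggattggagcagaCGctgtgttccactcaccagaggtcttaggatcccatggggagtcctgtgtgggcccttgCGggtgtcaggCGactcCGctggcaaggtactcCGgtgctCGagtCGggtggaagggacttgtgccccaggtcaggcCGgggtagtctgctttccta

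The fold enrichment of the strongly enriched regions had medians of 18.5 in WT 1, 19.6 in WT 2, 16.9 in βRapKO 1 and 17.1 in βRapKO 2. Over all 75052 regions with a peak in every library, X and Y included, the medians were 8.24, 8.78, 7.66 and 7.70 in the same order. The lowest of a region's 4 values had a median of 16.1, was under 16 in 251 regions and reached 20 or more in 35. These values chose the regions and are given as a description. The limiting value came from a βRapKO library in 459 of the 552 regions, and single peaks of 15-fold or more were fewer in those libraries, with 1128 and 1241 against 2431 and 3971 for WT. The estimated fragment length also differed between libraries, at 275, 238, 269 and 283 bp, and its part in these fold enrichments was not tested.

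**Figure D1:**
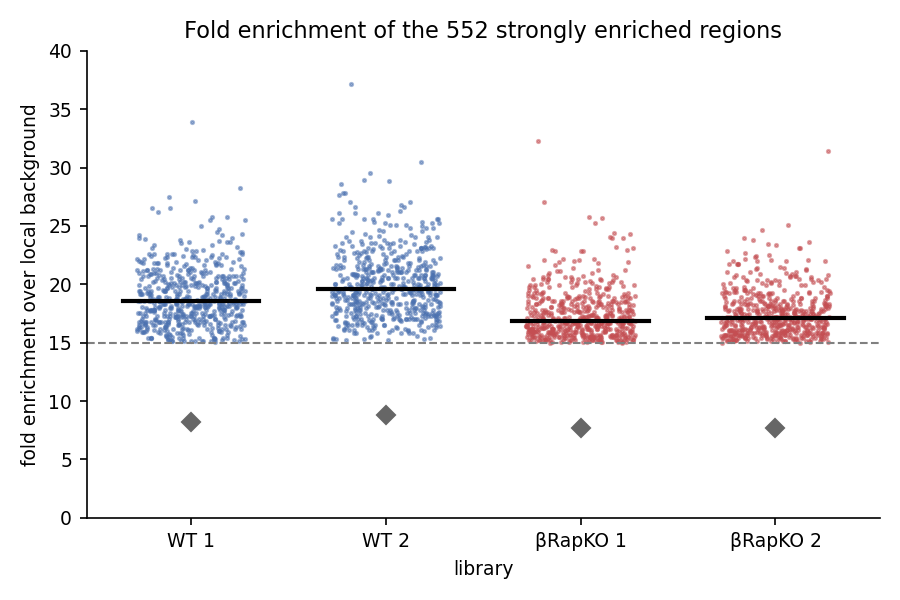
Fold enrichment over local background (vertical axis) of the 552 strongly enriched regions in each of the 4 libraries (horizontal axis), with the threshold of 15 as a dashed line, black bars for their medians and diamonds for the medians of all regions. Every region lies at or above the threshold by construction, the medians run from 16.9 in βRapKO 1 to 19.6 in WT 2, and the highest value of each library lies between 31.4 and 37.1.

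There was no gap in the values at the threshold. The regions chr15:17691421-17692913, chr9:27212534-27213863 and chr5:120852198-120853664, the last in an intron of Oas1f, had a lowest fold enrichment of 15. The nearest regions outside, chr1:149345794-149346701, chr1:180735288-180737129 over an exon of Acbd3 and chr3:40052557-40053675, had 14.99.

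A strongly enriched region was 598 to 3291 bp wide, with a median of 1359 bp, and 548 of the 552 had exactly 1 peak in each library. The median number of tags was 99.5 in WT 1, 116.5 in WT 2, 102 in βRapKO 1 and 106 in βRapKO 2. Scaled to the tags left in each library, as counts per 1000000 tags (CPM), the medians were 3.89, 3.72, 3.49 and 3.63. The authors' peak caller kept 1 tag per position and strand, and the regions were far from filling their positions. The median share of occupied positions was 4.43 to 5.76% by library, and the highest of any region was 34.2%.

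The strongly enriched regions had a denser core of CpGs in emptier surroundings than the regions under 10-fold. In the 500 bp around the mean summit the median density was 3.4 CpG per 100 bp in the strongly enriched regions, against 3.2 in the 7871 regions whose lowest fold enrichment was 10 to under 15 and 2.4 in the 64096 regions under 10. In the DNA 1000 to 5000 bp to either side the order was the opposite, with medians of 0.60, 0.75 and 1.0 CpG per 100 bp. The core was not denser among the 35 regions at 20-fold or more, where the median was 3.0 and 11 regions had 2 or fewer CpG per 100 bp. The median ratio of core to surroundings was 5.54 in the strongly enriched regions, 4.21 in the middle class and 2.41 in the lowest. Fold enrichment is itself set against the surrounding DNA, and the part of the flanking CpG density in it was not tested. No test was run between these classes, and overlapping or repeated sequences are not independent observations.

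The sequence under the summits was repeated more often than in the regions under 10-fold, but about as often as in the middle class. The median soft-masked share was 54.1% in the strongly enriched windows, 54.0% in the middle class and 20.2% in the lowest, and windows with more than 50% of 50-mers found once made up 66.1, 64.9 and 82.7%. A share of 54.5% of the strongly enriched windows were soft-masked as repeats over 50% or more of their length, against 33% of the other regions. A 50-mer has the length of a sequenced read. Every sampled 50-mer of the window occurred once in the assembled chromosomes in 139 strongly enriched windows (25.2%) and in 57.1% of the others. No 50-mer was found once in 20 regions (3.62%), against 4.53% of the others. How the aligner placed reads with several equally good positions is not given in the sources used here, so that tags in the remaining regions may belong to another copy.

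The 4 libraries placed the summit at nearly the same base. The distance between the lowest and highest summit of a region had a median of 28 bp in the strongly enriched regions, 38 bp in the middle class and 59 bp in the lowest. With a lowest fold enrichment of 20 or more it was 21 bp over 35 regions.

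**Figure D2:**
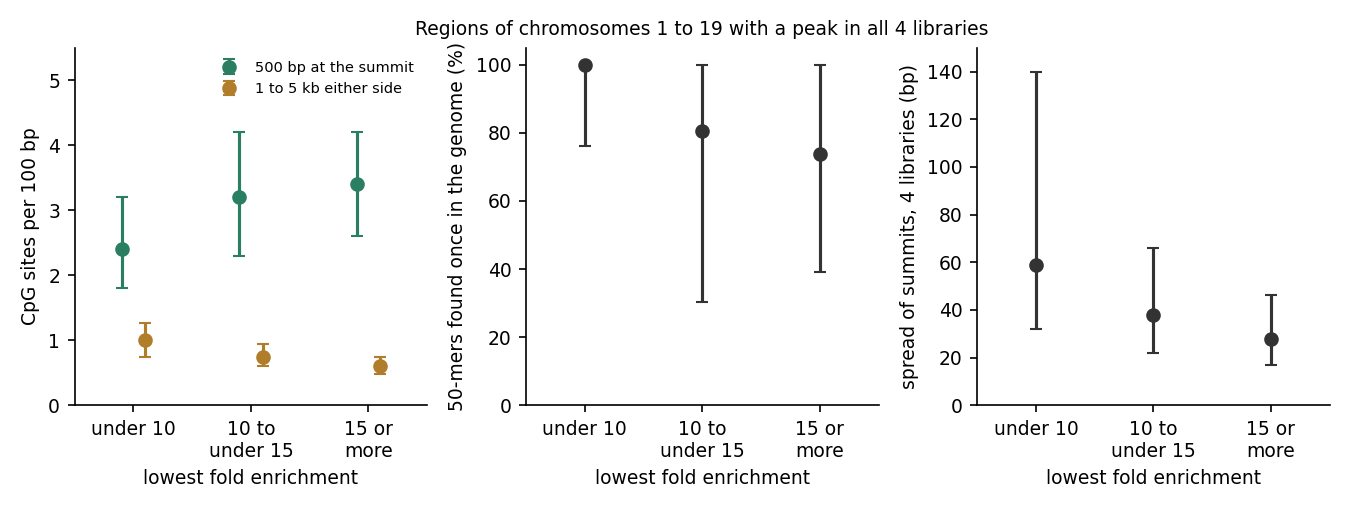
Medians (points) and quartiles (bars) of CpG sites per 100 bp at the summit and 1 to 5 kb away, of the share of 50-mers found once in the genome, and of the spread of summits between the 4 libraries in bp, each for 3 classes of lowest fold enrichment on the horizontal axis. From the lowest to the highest class the CpG density at the summit rises from 2.4 to 3.4, that of the surroundings falls from 1.0 to 0.60, and the summit spread falls from 59 to 28 bp.

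Most strongly enriched regions lay between genes. The summit of 296 (53.6%) was intergenic, against 41.7% of the other regions, 145 lay in introns of protein-coding genes, 51 in their exons, 51 in other genes such as noncoding RNAs and pseudogenes, and 9 in a window from 2000 bp before to 500 bp after a protein-coding start. The median distance to the nearest coding start was 79635.5 bp, against 64785 bp in the middle class and 44477 bp in the lowest. By overlap of any part of the region, 16 (2.90%) touched a start window, against 3.30% of the others. The 10 with the highest fold enrichment among them lay at Brox, Prpf18, Mcrip1 with Ppp1r27, Sspn, Esp8, Tbc1d30, Zfp992, Zfp865, Fstl4 and Hrh2. They included Prpf18, a splicing factor, and Hrh2, a histamine receptor, with lowest fold enrichments of 18.6 and 15.6.

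Chromosome 13 held 47 of the regions, or 12.8 per 1000 regions with a peak in every library, followed by chromosome 1 with 56 (10.6), 16 with 27 (10.3) and 6 with 42 (10.3). Chromosomes 11 and 19 were at the other end, with 17 (4.36) and 9 (4.49). The average was 7.61 per 1000. Only 8 bins of 2 Mb held 4 or more regions, 43 in all. The fullest, on chromosome 8 from 20 to 22 Mb, held 9, and the next, on chromosome 4 from 60 to 62 Mb, held 7, of which 6 were copies of each other (family 10). The latter stretch carries the major urinary protein genes, a tandem array of near-identical genes for pheromone carriers, and the 6 copies lay 22431 to 29987 bp from the nearest coding start.

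The highest fold enrichment of all, in each library as well as over all 4, was that of chr1:183298680-183300135, in an intron of Aida and overlapping at one side the start window of its neighbour Brox, a gene for a BRO1-domain protein. Its fold enrichment was 33.9 in WT 1, 37.1 in WT 2, 32.3 in βRapKO 1 and 31.4 in βRapKO 2. It held 291, 290, 303 and 291 tags, or 11.4, 9.26, 10.4 and 9.97 CPM, so that WT 1 was the highest library, WT 2 the lowest, and the genotypes overlapped. The 500 bp around its summit held 1.2 CpG per 100 bp, and the 200 bases printed first above held 6 CG. Part of the 500 bp is unknown sequence that counts in its length, so the density of the known bases is higher. A run of 100 unknown bases in the assembly (chr1:183299595-183299694) lay 173 bp from the summit. It was the only one of the 552 regions with such a run, against 43 of the 71967 others (0.0597%), and the DNA inside the gap could not be read.

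Next in the order of fold enrichment came a telomere-type array and another window with few CpGs. The telomere-type array chr12:93576621-93577808 had 28.2, 30.4, 27.0 and 25.1-fold enrichment. It held 214, 202, 252 and 224 tags (8.36, 6.45, 8.62 and 7.68 CPM), with WT 2 lowest and the genotypes overlapping. The region after it, chr9:24541779-24542776, reached 26.5, 28.9, 25.6 and 24-fold with 0.6 CpG per 100 bp, although every 50-mer of its window was found once. It held 138, 143, 143 and 140 tags, or 5.39, 4.56, 4.89 and 4.80 CPM, with both βRapKO libraries between the WT libraries.

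Of the remaining regions in the first 10, chr8:15519542-15520868 is the family 7 window printed above and the others lay at genes or in a small family. In introns, chr2:73867219-73868755 lay in Atf2, a transcription factor of the stress response, with 121, 143, 118 and 122 tags. An intron of Mctp1, a calcium-binding membrane protein, held chr13:76590187-76591347, where the window repeated itself after 6 bp, with 122, 123, 147 and 160 tags. In CPM, both βRapKO libraries lay above both WT libraries in Mctp1 (5.03 and 5.48 against 4.77 and 3.93) and below them in Atf2 (4.04 and 4.18 against 4.73 and 4.56). Neither difference passed the test described further on, with adjusted p-values of 0.864 and 0.892 (edgeR quasi-likelihood test, Benjamini-Hochberg). The 15-bp array printed above lay in Slf1, a gene of DNA repair, and had 8.0 CpG per 100 bp with 149, 183, 162 and 156 tags. The list was completed by chr10:49172970-49174414 in Grik2, a kainate receptor subunit, by chr16:57045316-57046169 in Tmem45a2 and by the intergenic chr12:21914511-21915566. Their lowest fold enrichments were 22.0, 21.7 and 22.4.

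**Figure D3:**
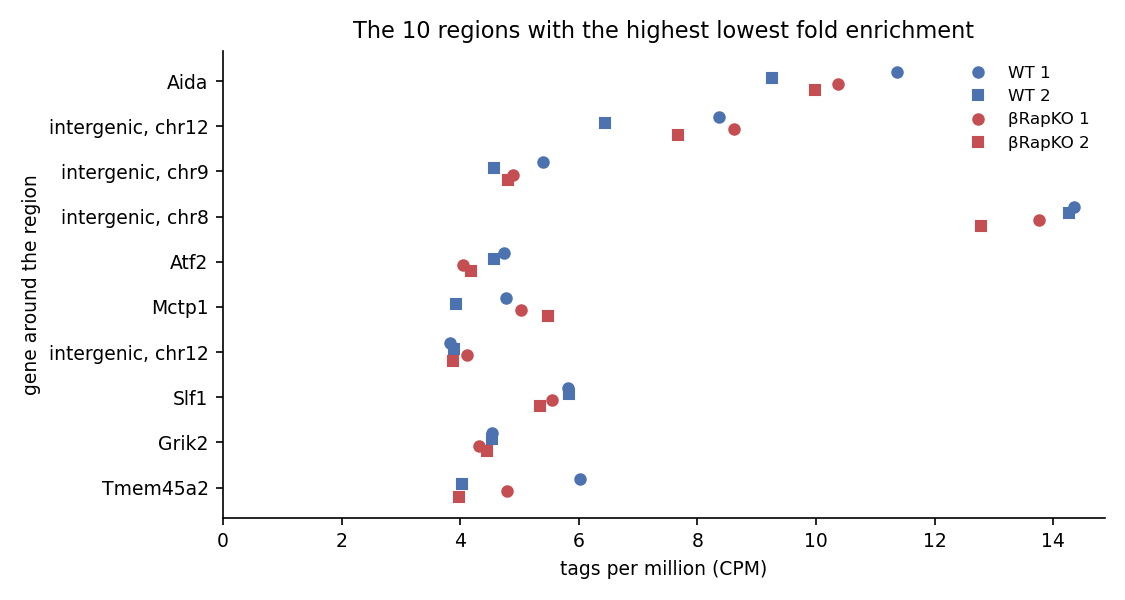
Tags in CPM (horizontal axis) of the 10 regions with the highest lowest fold enrichment (vertical axis, highest at the top, named by the gene they lie in or by chromosome) in the 2 WT and 2 βRapKO libraries. The family 7 region on chromosome 8 has the most, with 12.8 to 14.3 CPM, and the genotypes overlap in 5 of the 10 regions. Over all regions both βRapKO libraries lie below both WT libraries in 25.3% and above them in 11.6%, and 10 regions are too few to tell from these shares.

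Short tandem arrays were more frequent than among the other regions. A window was compared with itself after shifts of 2 to 250 bp, and 83 of the 552 (15%) matched at 50% or more of their bases, against 7.5% of the others. With shifts of 2 to 60 bp the numbers were 41 (7.43%) and 2.16%. The most extreme was chr14:92089309-92090537, printed above, whose window matched itself at 98.2% of bases after 7 bp and in which one stretch of copies carried a CG each and another carried none. It had 7.8 CpG per 100 bp and 118, 159, 96 and 113 tags. The 9-bp array chr15:63572090-63573711 had the most CpGs of all, 9.4 per 100 bp, with 178, 139, 173 and 179 tags. Its WT 2 value was the lowest in CPM (4.44 against 5.92 to 6.96), so the genotypes overlapped there, while the 7-bp array was lower in both βRapKO libraries (3.29 and 3.87 against 4.61 and 5.07 CPM), with an adjusted p of 0.855 (edgeR).

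Apart from the 15-bp array in Slf1, with 8.0 CpG per 100 bp, the other regions with the most CpGs were not tandem arrays. They were chr16:57390377-57392383 in introns of Cmss1 and Filip1l, with 8.6 CpG per 100 bp and 440, 551, 465 and 482 tags, and chr13:44868823-44870806 in an intron of Jarid2, a partner of Polycomb repressive complex 2, with 8.2 and 349, 407, 356 and 378 tags. Both belong to family 7. After the Slf1 array came chr5:146260334-146261598 in an intron of Cdk8, a kinase of the Mediator complex, with 7.8 and 197, 270, 241 and 240 tags. In both family 7 regions the βRapKO libraries were slightly lower in CPM (15.9 and 16.5 against 17.2 and 17.6 in the first), and in Cdk8 they lay between the WT libraries.

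Telomere-type arrays stood at the other end of CpG content. TTAGGG in 3 or more units in a row, on either strand, occurred in 8 windows (1.45%) and in 64 of the other regions (0.0889%), and none of the 8 was at a chromosome end. They were chr12:93576621-93577808, chr2:57628877-57630334, chr14:86198356-86199912, chr12:16747062-16748381 in an intron of Greb1, chr14:69161255-69163183, chr4:153152426-153153879, chr6:56232922-56234386 in an intron of Pde1c and chr9:27212534-27213863. Their CpG density was 0 to 1.2 per 100 bp, and those on chromosomes 4 and 6 were the only 2 of the 552 windows without any CpG in the reference. TTAGGG itself holds no CpG.

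Across the 8 telomere-type arrays WT 2 had the lowest CPM, as it did in some regions of other kinds. The region on chromosome 2 held 205, 173, 227 and 223 tags, or 8.01, 5.52, 7.77 and 7.64 CPM, and that in Pde1c 84, 65, 81 and 76 tags, or 3.28, 2.07, 2.77 and 2.60 CPM. In every one of the 8 the WT 2 CPM value was the lowest of the 4. It was also the lowest in the Aida region and in the satellite-like chr9:35304481-35305972. How often WT 2 was lowest over all regions was not counted. Their log2 fold-changes between genotypes ran from -0.0080 to 0.19 and the genotypes overlapped in all 8. Of all regions, 25.3% were lower and 11.6% higher in both βRapKO libraries, and the others overlapped. WT 2 was also the deepest library and the one with the shortest fragment estimate, and the part of either in these values was not tested.

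The most tags of any strongly enriched region lay in satellite-like DNA. The annotated satellite array Gm26870 (chr9:3000282-3038313) repeats itself after 234 bp, the unit of the major satellite that fills mouse pericentromeres, and 5 of the 552 windows (0.906%) shared 5% or more of their 16-mers with it, against 12 of the others (0.0167%). Of these 5 the one with the most tags, and the highest of the 552, was chr9:35304481-35305972, with 38.8% of 16-mers shared and 726, 726, 726 and 733 tags. Among the 5, chr12:3109159-3111395 (46.8% shared) came next, with 466, 446, 443 and 458 tags. The third of the 5 was chr3:56574725-56576320 (10.5% shared), with 385, 403, 399 and 419. The remaining pair, in introns of 2210408I21Rik and Mamdc2, shared 22.5 and 8.66% and held 224 to 237 and 122 to 128 tags. Raw tags were thus almost equal in the 4 libraries although the depths differed. In CPM the region on chromosome 9 came to 28.4, 23.2, 24.8 and 25.1, with WT 1 highest, WT 2 lowest and both βRapKO libraries between them. Between 25.5 and 34.2% of its positions were occupied, the highest share of any region, and the part of the limit of 1 tag per position in these near-equal counts was not tested.

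Windows of 260 of the regions resembled each other. Joining windows that shared 20% or more of the 16-mers of the smaller window gave 28 families, 13 of them with 4 or more members (229 regions), and left 292 regions without a relative among the 552. The family members were intergenic in 71.5% of cases, with a median of 4.0 CpG per 100 bp and 41.3% of 50-mers found once. The regions without a relative were intergenic in 37.7%, with 2.8 CpG per 100 bp and 97.8% of 50-mers found once. Both groups had emptier surroundings than the average region, with 0.56 and 0.66 CpG per 100 bp against 0.96. No repeat annotation was used, so the families are numbered by size and are described by what their sequence holds.

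**Figure D4:**
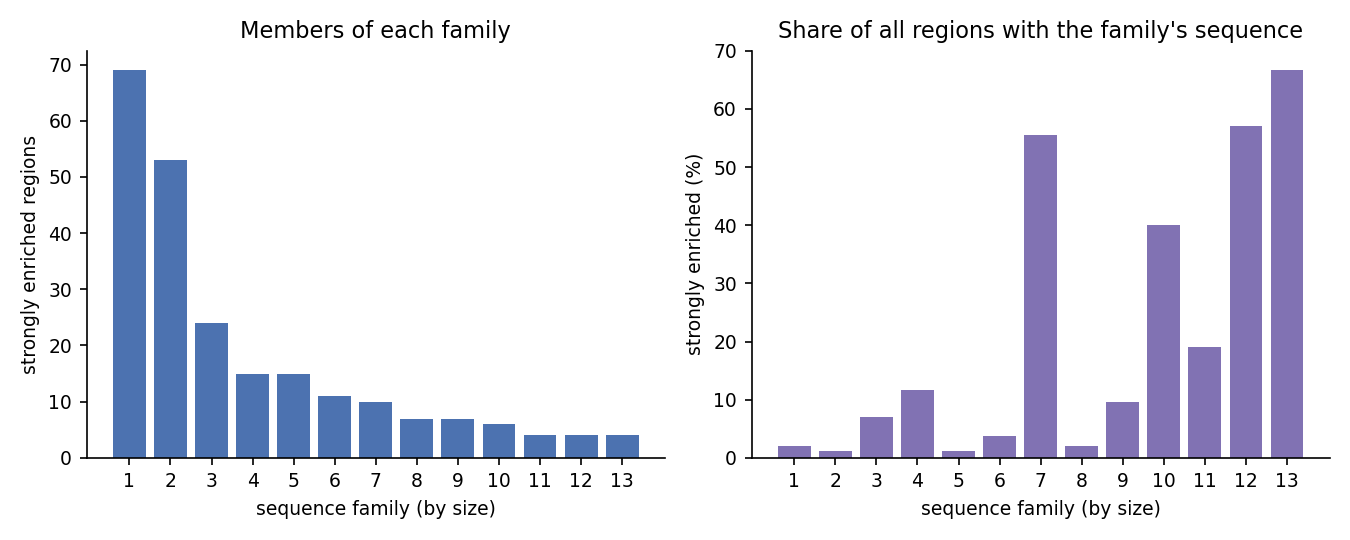
Number of strongly enriched regions in each of the 13 sequence families of 4 or more (left) and the percentage they make up of all regions with a peak in every library that resemble the family (right), by family number on the horizontal axis. Families 1 and 2 are the largest, with 69 and 53 regions, but are 2.03 and 1.20% of their kind, whereas families 7, 12 and 13 reach 55.6, 57.1 and 66.7%. The latter shares rest on few regions: 10, 4 and 4 strongly enriched, with 8, 3 and 2 others of their kind.

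Family 1 held 69 regions on 17 chromosomes. In 68 of them the best self-match was at a shift of 195 to 210 bp, most often 199 bp, and in 29 it covered 50% or more of the bases. The example printed above, chr13:78358130-78359486, matched itself at 92.0% after 199 bp and had 132, 184, 146 and 137 tags. An open stretch of 800 or more codons lay within 8000 bp of 18 members. Among all 552 regions 39 (7.07%) had such a stretch, against 10.3% of the regions outside the 552. Mouse LINE-1 elements, which copy themselves through RNA, begin with tandem promoter units ahead of long reading frames, and whether these windows are such units was not tested. The family had 3.6 CpG per 100 bp (median, range 2.2 to 6.4), and 3326 other regions outside the 552 resembled it with a higher median of 4.2.

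Members of families 2, 3, 4, 5 and 11 carried sites for tRNA primers. Endogenous retroviruses are ordered by the tRNA whose end primes their reverse transcription: intracisternal A particles use phenylalanine tRNA, and MusD and ETn elements use lysine tRNA. The site TGGCGCCCAACGTGGG, complementary to the last bases of a lysine tRNA with its CCA end, occurred in 7 of the 24 regions of family 3 and in 1 of the 15 of family 4. In all it was in 8 of the 552 regions (1.45%) against 42 of the others (0.0584%). A phenylalanine site, TGGTGCCGAAACCCGG, was found in 5 regions (0.906%), 3 of them among the 53 of family 2, but in 1.12% of the others, and an isoleucine site, TGGTGGCCCGTACGGG, in 4 (0.725%), 3 of them in family 5, against 0.761%. The lysine site was the one of these 3 that was more frequent in the strongly enriched windows. A lysine site of another sequence was found in 1 region, of family 11 (0.181%), against 0.0417% of the others. The example of family 3, chr13:96307408-96308987, had no 50-mer found once and held 119, 137, 148 and 145 tags.

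Family 7 was the one most often strongly enriched among the families of 10 or more. Its 10 regions on 8 chromosomes made up 55.6% of the regions that resemble it, with 8 others, and their windows were hardly soft-masked (median 8.4%) and rich in CpG (median 5.6 per 100 bp, range 4.2 to 8.6). Besides those of Jarid2, Cmss1 with Filip1l and chr8:15519542-15520868, they lay in introns of Arhgap21 and Sspn, in other genes or between genes. Their tags ran from 102 to 551. The chromosome 8 region held 367, 447, 402 and 373 tags (14.3, 14.3, 13.8 and 12.8 CPM), with both βRapKO libraries below both WT libraries. None of the 552 windows shared 5% or more of its 16-mers with the annotated pieces of 18S (Rn18s-rs5) or 28S (Rn28s1, 420 bp) RNA genes. The full 28S sequence was not compared, so whether family 7 resembles other parts of it was not tested.

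The smaller families were more local. The 6 copies of family 10 among the urinary protein genes held 135 to 227 tags, with 4.2 to 5.4 CpG per 100 bp. Family 12 consisted of 4 copies within chromosome 8 from 20115587 to 20546353, which held 132 to 203 tags at only 1.8 to 2.0 CpG per 100 bp. In chr8:20544051-20546353 the βRapKO 1 library stood apart, with 197 tags against 138, 148 and 140, and in chr8:20301393-20303664 it held 203 against 146, 172 and 132. Because 3.26% (median) of the 50-mers in family 12 occur once, tags cannot be assigned to 1 copy.

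Several of the gene groups examined by name had strongly enriched regions. Regions over chemoreceptor genes, the odorant and pheromone receptors, numbered 6 of 222 and included Olfr1428, Olfr943, Olfr461, Vmn2r20 and Vmn2r21. Zinc finger genes, many of which encode repressors of retroviruses, had 10 of 700, including Zfp961, Zfp600, Zfp42, Zfp992 and Zfp936. Against 7.61 per 1000 regions overall these were 27.0 and 14.3 per 1000, with no test made. In Vmn2r20 and Vmn2r21 the windows belonged to family 3, in Zfp936 to family 2 and in Olfr461 to family 11. Zfp42, a gene of pluripotent and germ cells also known as Rex1, was the 1 germline gene of 49 regions over such genes. Its region chr8:43295217-43296945 covered an exon with 177, 190, 199 and 219 tags, or 6.92, 6.06, 6.81 and 7.51 CPM, and the genotypes overlapped. Of the 182 regions over genes whose symbols begin like collagens 2 were strongly enriched, Col22a1 and Col4a3bp, and the latter encodes a ceramide carrier and no collagen.

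No strongly enriched region lay over an imprinted gene (of 114 regions with a peak in every library), a disallowed or maturation gene of beta cells (81), a DNA methylation enzyme gene (41), an mTORC1 gene (49), a clustered protocadherin (44), an islet gene (10) or an acinar or duct gene (7). Among genes with copies in several places, Zfp980 was the 1 of 22 regions. Hox genes had no region with a peak in every library. For lists of this size the overall rate of 7.61 per 1000 would give less than 1 region each.

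Tags were compared between genotypes in 1 fit over all 75052 regions with a peak in every library, X and Y included. No strongly enriched region passed a false discovery rate of 0.05 in either direction (edgeR quasi-likelihood test, Benjamini-Hochberg), where the background was likewise 0% lower and 0% higher. The smallest adjusted p was 0.745 among the 552 and 0.173 over all. At an unadjusted p under 0.05, 8 (1.45%) were lower in βRapKO and 1 (0.181%) was higher, against 3.93 and 1.88% of all regions. An exact permutation test of 2 against 2 libraries cannot go below a two-sided p of 0.333 for any single region.

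The differences between genotypes were small in the strongly enriched regions. The fitted log2 fold-change of βRapKO over WT had a median of -0.07, against -0.06 over all regions, ran from -0.57 to 0.40, and exceeded a 1.5-fold change in 0 of the 552. The median size of the change was 0.11, against 0.16 over all regions, and the 2 libraries of a genotype differed by a median of 0.14 (WT) and 0.13 (βRapKO) on the same scale. A genotype difference is taken between means of 2 libraries and the others between single libraries, so these sizes are not on an equal footing. Both βRapKO libraries lay below both WT libraries in 159 regions (28.8%) and above them in 47 (8.51%), against 25.3 and 11.6% of all regions. The split between lower and higher moved with the scaling of the libraries: it was 99 (17.9%) and 101 (18.3%) with TMM normalization, against 17.9 and 17.8% of all regions, and 27 (4.89%) and 157 (28.4%) when each library was scaled by its total of peak tags, against 8.03 and 27.9%. The median over all regions moved along, to 0.0038 and 0.10, with the median of the 552 just under it at -0.0049 and 0.094.

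The 5 regions with the smallest p among the lower ones were chr12:11760019-11761453 over the pseudogene Gm6867, chr17:23556987-23558795 over an exon of Zfp213, chr7:16846968-16848405 over an exon of Prkd2, chr1:177968996-177970561 and chr18:30494658-30495906 over the pseudogene Gm7936. The first held 117, 152, 87 and 98 tags, or 4.57, 4.85, 2.98 and 3.36 CPM, and the libraries of the genotypes did not overlap (log2 fold-change -0.57, unadjusted p = 0.00929, adjusted p = 0.745, edgeR). In Prkd2, which encodes protein kinase D2, an enzyme of secretory vesicle formation, the values were 122, 136, 89 and 99 tags, or 4.77, 4.34, 3.05 and 3.39 CPM (log2 fold-change -0.50, adjusted p = 0.840, edgeR). Zfp213 held 181, 231, 157 and 162 tags, or 7.07, 7.37, 5.37 and 5.55 CPM (log2 fold-change -0.40), at 7.4 CpG per 100 bp, and its window repeated itself after 84 bp, the length of a coding zinc finger. All 5 were lower in both βRapKO libraries, none passed the correction, and all lay mostly in DNA found once, with 82.6 to 100% of 50-mers unique.

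Among the higher ones only chr3:117383809-117386921 had an unadjusted p under 0.05 (0.0298, adjusted 0.849, edgeR), with 139, 211, 245 and 225 tags, or 5.43, 6.73, 8.38 and 7.71 CPM. The next were chr7:17286609-17287875 with 82, 94, 105 and 125 tags, chr14:41429929-41431947 with 107, 133, 158 and 142, chr5:83735219-83736571 with 67, 84, 91 and 102, and chr15:9356124-9357542 in an intron of Ugt3a2, a glycosyltransferase gene, with 93, 90, 117 and 117. In contrast to the lower ones, 4 of these 5 had 0 to 43.5% of 50-mers found once. Of the 5, those on chromosomes 7, 14 and 15 belonged to family 3 and that on chromosome 3 to family 2.

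Family 3 leaned upward, and so did the 4 regions of family 11, with a median log2 fold-change of 0.11. Of the 24 regions of family 3, 22 had a positive log2 fold-change, and the median was 0.12 (range -0.06 to 0.35). Both βRapKO libraries lay above both WT libraries in 11 (45.8%) and below them in 0, against 11.6 and 25.3% of all regions. Summed over the 24 regions the values were 94.8 (WT 1), 93.2 (WT 2), 98.5 (βRapKO 1) and 107 (βRapKO 2) CPM, and the genotypes did not overlap. The 320 regions outside the 552 that resemble the family had a median of 0.10, with 31.9% above and 5.63% below. Their sums were 933, 884, 942 and 1000 CPM. No region of the family had an unadjusted p under 0.05. The count of 11 was 17 with TMM normalization and 23 when libraries were scaled by their peak tags. The share of all regions higher in both βRapKO libraries rose too, to 17.8 and 27.9%. With tags divided by the width of each library's own peaks the family median was -0.03, against -0.17 over all regions. By that measure 5 regions were higher in both βRapKO libraries, against 4.54% of all regions. The sign thus rests on the measure, while the family stayed above the median of all regions. The 24 regions share sequence, so their tags are not independent, and no test over the family was made.

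Family 1 and the regions without a relative lay slightly below the median of all regions. In family 1 the median was -0.09, against -0.06 over all regions. Of its 69 regions 22 (31.9%) were lower in both βRapKO libraries and 5 (7.25%) higher, against 25.3 and 11.6% of all regions. The sums were 264, 256, 243 and 254 CPM. The lower WT library and the higher βRapKO library were thus about as far apart as 256 and 254. The 3326 regions that resemble family 1 but are not strongly enriched had a median of -0.15, with 49.1% lower and 4.72% higher and sums of 15024, 15350, 13183 and 13844. When each library was scaled by its total of peak tags the family median was 0.07, against 0.10 over all regions. With that scaling 2 regions of family 1 were lower in both βRapKO libraries, against 8.03% of all regions. The 292 regions without a relative had a median of -0.10, with 98 lower (33.6%) and 21 higher (7.19%).

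The other large families had medians from -0.11 to 0.02, against -0.06 over all regions, of which 25.3% were lower and 11.6% higher. Family 2 had a median of -0.04 (8 lower and 3 higher of 53), family 4 of -0.11 (5 and 0 of 15), family 5 of 0.02 (2 and 1 of 15) and family 7 of -0.07 (6 and 1 of 10). Regions with more than 50% of 50-mers found once were lower in 31.8% and higher in 6.85%. Those with fewer were lower in 23.0% and higher in 11.8%, close to the shares of all regions. Placement of reads and genotype were not separated by a test.

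**Figure D5:**
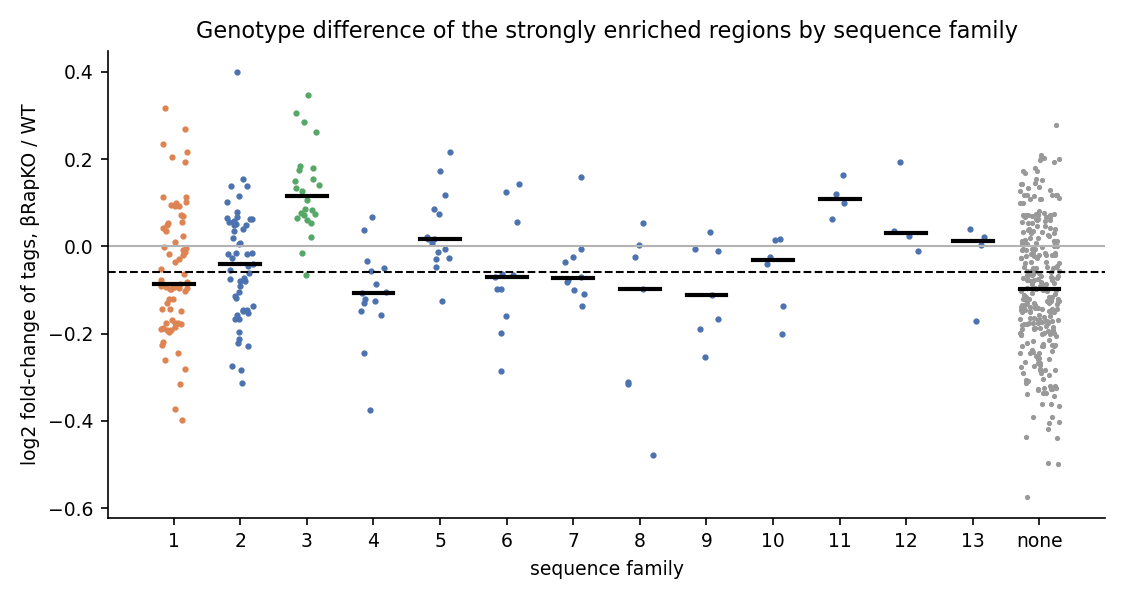
Fitted log2 fold-change of tags, βRapKO over WT (vertical axis), for each strongly enriched region in the 13 families of 4 or more and for the regions without a relative (horizontal axis), with black bars for medians and the median of all 75052 regions, -0.06, as a dashed line. Family 3 lies mostly above 0 (median 0.12), family 1 has a median of -0.09, and no region passes a false discovery rate of 0.05.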

How the data were processed

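MeDIP-seq libraries were sequenced on an Illumina HiSeq instrument with 50 cycles. The authors aligned reads with Bowtie2 2.2.5 to mm10 (the submitters' notes name mm9 as well) and called peaks in each library separately, without an input control. The deposited file headers name MACS 1.4.2, the notes 0.14.2. The headers state a local background over 10000 bp, at most 1 tag at each position and p below 1e-05. The deposited tag counts per peak are raw counts, the deposited fold enrichment is the ratio of a peak to its local background, and the authors' -log10 p-values (times 10) served in an alternative only. Alignments, input and window tables were not used here, and X and Y regions entered the fit but not the 552.

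Peaks were joined in Python 3.11.15. Tags were tested with edgeR 4.0.16 (quasi-likelihood, R 4.3.3) over 75052 regions, 2 libraries per genotype, with tags after duplicate removal as library sizes. The script was tested on simulated data. Genes came from GENCODE M21, and sequence from RefSeq GRCm38.p6 with its soft-masking. Summit windows spanned 500 bp, and 24-mers and 50-mers were sampled every 10 bp. Their copies were counted on the assembled chromosomes and the mitochondrial genome, without unplaced scaffolds. Regions named were the 10 with the highest lowest fold enrichment, 5 per direction by p, up to 5 per gene list, 10 at coding starts, 3 at each side of the threshold and 5 by CpG density. Satellite-like, telomere-type and family regions were named after their values were seen. Members and lists were chosen with earlier results of these data known. Alternatives were other fold-enrichment thresholds, joins, library sizes, TMM, a minimum of 50 tags, DESeq2 1.42.0, limma 3.58.1 on log2(CPM + 0.5), a replicate block and each library left out. Some sequence windows are not reported here.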

Additional observations from a re-analysis of the deposited data

Results flagged for a closer look

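The sex chromosomes, which stand outside the 552 regions, held strongly enriched regions by the same threshold and were set apart for that reason. On the X chromosome 13 of 1636 regions with a peak in every library (0.795%) reached a fold enrichment of 15 or more in each, with medians of 20.5, 21.3, 17.6 and 18.1 in WT 1, WT 2, βRapKO 1 and βRapKO 2. On the Y chromosome there were 6 of 897 (0.669%), with medians of 18.5, 18.4, 16.6 and 17.6. The shares are close to the 0.761% of the autosomes. The Y regions held a median of 6.52% of 50-mers found once and 5.0 CpG per 100 bp, and the X regions 30.4% and 3.2. Their summed tags, per 1000000 tags of the library, were 65.7, 56.3, 62.6 and 63.6 on X and 37.1, 30.3, 32.0 and 32.7 on Y. WT 1 was the highest and WT 2 the lowest library in both, and the genotypes overlapped.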

How the results depend on the processing

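The number of strongly enriched regions was 8423, 35 and 1 with thresholds of 10, 20 and 30, and 572 to 850 when the threshold was asked of 3 libraries, the highest without βRapKO 1. The median log2 fold-change of -0.07 over the 552 was -0.0049 with TMM, 0.094 when libraries were scaled by their total of peak tags, -0.18 per kb of each library's own peaks, -0.14 from the fold enrichments and -0.101 to -0.0237 with 1 library left out (-0.0237 without WT 1). The 159 regions lower and 47 higher in both βRapKO libraries were 99 and 101 with TMM and 27 and 157 with tags in peaks, and 223 and 21 per kb, where 41.1% of all regions were lower and 4.54% higher. The family 1 median was 0.074 with tags in peaks, and the family 3 median was -0.0265 per kb. The causes were not tested. DESeq2 called 2 regions higher, neither of them among the 552, against 0 with edgeR, where 4363 regions had an unadjusted p under 0.05. Around the summits the 3.4 CpG per 100 bp were 2.2 in 1000 bp and 1.90 over whole regions, against 2.4, 1.9 and 1.76 over all regions, so the excess shrinks with the window. With more than 90% in place of 50% of 50-mers found once, 200 regions remained of 365. The summit spread was 28.5 bp in regions of 1 peak per library, and 7 and 9 regions in place of 16 touched a coding start with a narrower window or by summit. When same-numbered libraries were paired as a replicate block, 0 regions passed in either direction and 4731 had an unadjusted p under 0.05. Deviations of same-numbered libraries correlated at 0.048 over all regions and 0.10 over the 552. With 2 libraries per genotype this cannot show whether same-numbered libraries share more than a number. The block changed no call.

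Peaks show where tags pile up within a library and give no absolute methylation level. The copy of origin of tags in repeated windows was not tested, and 61 to 70 tags in the weakest regions limit what 2 libraries per genotype can show.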
